A study of Mus musculus with 15 samples.

Results

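The transcription factors that drive or oppose the epithelial-mesenchymal transition (EMT) were followed through 2 RNA-Seq datasets of NMuMG cells, a mouse mammary gland epithelial line, and of its derivatives with silenced Pcbp1. The set held 10 named genes, Twist1, Twist2, Snai1, Snai2, Zeb1, Zeb2, Prrx1, Grhl2, Ovol1 and Ovol2, and was found by exact gene name. Of these, 8 were found among the 13893 genes of the first dataset and the same 8 among the 15023 genes of the second, while Prrx1 and Ovol2 were not analysed here. The first dataset held 11 libraries, each from 1 RNA sample of 1 cell line. All 11 lines carried an shRNA against PCBP1, an RNA-binding protein of the heterogeneous nuclear ribonucleoprotein family. The shPCBP1 group had 4 lines, namely the unaltered line and CT clones 1, 2 and 3, which had received Cas9 without a gene-specific guide RNA. In 3 clones FAM3C was knocked out (FAM3C KO), in another 3 LIFR was (LIFR KO), and 1 line carried both knockouts (FAM3C/LIFR double KO), all made by CRISPR-Cas9 in shPCBP1 cells; FAM3C is a secreted cytokine-like protein also known as ILEI, and LIFR is the receptor for leukemia inhibitory factor. The second dataset held 2 libraries of NMuMG cells and 2 of shPCBP1 cells. Its reference is called untreated NMuMG in the sample labels but a scrambled shRNA control in the study's text, so whether it carries a control shRNA is uncertain for every value of that comparison. Because a replicate was a line or clone in the first dataset and nothing states that the samples of the second came from separate cultures, p-values measure only the spread between these samples, which may be technical.

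EMT transcription factors are DNA-binding proteins that switch cells between an epithelial and a mesenchymal state. Twist1 and Twist2 are basic helix-loop-helix (bHLH) proteins that pair with E proteins and bind E-boxes, Snai1 (Snail) and Snai2 (Slug) are zinc-finger repressors of E-cadherin and other junction genes, and Zeb1 and Zeb2 are zinc-finger homeodomain repressors of the same kind of target. Grhl2 and Ovol1 act the other way, since Grhl2 activates epithelial junction genes and Ovol1 is a zinc-finger repressor that favours the epithelial state. TGF-β and STAT3 signalling are known inducers of the first group in mammary cells, and epithelial and mesenchymal factors of this set restrain one another.

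The members lie on separate loci except that Snai1 and Zeb2 share chromosome 2. In GRCm38 with GENCODE M21 annotation, Twist1 (ENSMUSG00000035799) spans chr12:33957671-33959829 and Twist2 (ENSMUSG00000007805) spans chr1:91801461-91848028, both on the plus strand. Snai1 (ENSMUSG00000042821) spans chr2:167538195-167542814 and Snai2 (ENSMUSG00000022676) spans chr16:14705852-14709385, both on the plus strand. Zeb2 (ENSMUSG00000026872) spans chr2:44983632-45117395 on the minus strand. Grhl2 (ENSMUSG00000022286) spans chr15:37233036-37363569 on the plus strand and Ovol1 (ENSMUSG00000024922) spans chr19:5549136-5560646 on the minus strand. Twist1, Snai1 and Snai2 overlap no gene on the opposite strand, whereas Twist2 overlaps 1, Zeb1 2, Zeb2 4 (among them Zeb2os), Grhl2 3 and Ovol1 2, and whether the counting used strand is not given in the sources used here. Values of those 5 genes are therefore uncertain to the extent that reads of an antisense partner were counted with them.

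The bases just upstream of Twist1, Twist2 and Snai1 are shown because these genes differed most between NMuMG and shPCBP1 cells or varied most between lines. Each is the 250 bases before the RefSeq start on the plus strand (GRCm38.p6), at chr12:33957421-33957670 for Twist1, chr1:91801211-91801460 for Twist2 and chr2:167537945-167538194 for Snai1. In the Twist1 sequence, capitals mark the forward primer of the STAT3 chromatin immunoprecipitation PCR that was designed for this study, which begins 81 bases before the start (chr12:33957590-33957608). In the Snai1 sequence, capitals mark an E-box that begins 126 bases before the start, and the Twist2 sequence carries no capitals.
Twist1 upstream: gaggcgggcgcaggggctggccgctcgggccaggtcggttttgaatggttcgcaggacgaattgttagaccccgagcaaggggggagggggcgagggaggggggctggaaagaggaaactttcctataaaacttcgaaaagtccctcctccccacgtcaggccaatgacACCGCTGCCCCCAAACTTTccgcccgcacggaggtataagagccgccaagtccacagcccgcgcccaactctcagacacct
Twist2 upstream: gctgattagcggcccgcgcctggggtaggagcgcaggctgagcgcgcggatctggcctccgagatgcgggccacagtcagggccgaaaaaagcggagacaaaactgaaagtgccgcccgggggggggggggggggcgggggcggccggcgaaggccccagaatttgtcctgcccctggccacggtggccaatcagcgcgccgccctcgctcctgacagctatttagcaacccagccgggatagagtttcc
Snai1 upstream: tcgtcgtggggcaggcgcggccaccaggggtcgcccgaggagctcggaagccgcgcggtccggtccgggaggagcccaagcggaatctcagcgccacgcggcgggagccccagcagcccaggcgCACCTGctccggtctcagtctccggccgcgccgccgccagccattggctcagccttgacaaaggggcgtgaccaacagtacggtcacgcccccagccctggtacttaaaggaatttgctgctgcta
The searched letters were CANNTG, the general E-box bound by bHLH and zinc-finger EMT factors, its subset CAGGTG with the reverse complement CACCTG, and TTCNNNGAA, the general STAT element, all on both strands. CANNTG was found in 66.0% of 27025 mouse promoter windows of the same length and TTCNNNGAA in 7.18%, and CAGGTG or CACCTG in 17.1%. Neither CANNTG nor TTCNNNGAA is spelled out in the Twist1 or Twist2 window, and the Snai1 window holds 1 CANNTG match, which is the CACCTG in capitals, with no TTCNNNGAA match. GC content was 62.4% for Twist1, 68.8% for Twist2 and 70.0% for Snai1, against a median of 52.0% over all windows. A match describes only these letters in this window, and the absence of one says nothing of binding.

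Values are CPM, the count of a gene scaled to the total of its library, and depth and cell identity set what can be read from them. Taking the smallest step between values as 1 read, libraries of the first dataset held 16000000 to 46900000 reads and those of the second held 53000000 to 56500000 reads. Pcbp1 itself was at 287 and 312 CPM in the NMuMG libraries and at 14.1 and 14.2 CPM in the shPCBP1 libraries (log2 fold change -4.39, limma, adjusted p = 5.23e-14). The transcripts of the targeted genes were still present in the knockouts, with Fam3c at a mean of 34.4 ± 8.23 CPM in FAM3C KO clones (SD, n = 3) against 53.7 ± 5.13 CPM in shPCBP1 lines (SD, n = 4). The log2 fold change of Fam3c was -0.66 (limma, adjusted p = 0.232), with an exact permutation p of 0.0286. For Lifr, LIFR KO clones 1, 2 and 3 held 34.9, 29.3 and 14.6 CPM and the double KO line 4.36 CPM, against 25.8 to 40.2 CPM in shPCBP1 lines, so the transcript level does not check the label of LIFR KO clones 1 and 2. Of 5 luminal epithelial markers 4 were listed, Krt8, Krt18, Krt19 and Cdh1, and their sum was 1210 to 3170 CPM in the first dataset and 2770 to 2970 CPM in the second, while the listed fibroblast markers (3 of 5) summed to at most 5.42 CPM. LIFR KO clones 2 and 3 and the double KO line stood apart, with 7.22, 7.16 and 8.58% of CPM on mitochondrial genes against 3.14 to 4.06% in the other 8 libraries of the first dataset. In the same 3 libraries the difference from the shPCBP1 mean fell with the GC content of a gene (Spearman rho across 12603 genes -0.76, -0.74 and -0.70, against -0.29 to 0.24 in the others). For several members and list genes, results on LIFR KO clones are therefore also given for clone 1 alone or after correction for GC content.

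The first comparison asked how the EMT factors differ between NMuMG cells and shPCBP1 cells. All 5 members that could be tested, Twist2, Snai1, Snai2, Zeb1 and Zeb2, were higher in shPCBP1 cells, from 1.36-fold for Zeb1 to 22.2-fold for Twist2 on the log2(CPM + 0.1) scale. A gene was tested when its mean reached 0.5 CPM and was called at a Benjamini-Hochberg adjusted p under 0.07 in limma. This was a comparison in which 80.1% of 11384 tested genes were called and 42.1% were called higher, so the 5 of 5 calls are read against those shares. The median log2 fold change was 1.9 over the 5 members and 0.025 over all genes tested. Twist2, Snai1 and Snai2 passed the 0.5 CPM limit only through the shPCBP1 libraries, as their NMuMG means were 0.069, 0.275 and 0.367 CPM. Their direction and their place in these counts were thus partly set by that limit.

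Among the bHLH factors, Twist2 was at 0.0813 and 0.0567 CPM in the NMuMG libraries and reached 3.76 and 3.52 CPM in the shPCBP1 libraries. Twist2 was thus close to undetected in NMuMG cells and had the largest change of the 5 tested members, with a log2 fold change of 4.47 ± 0.17 (SE, limma, adjusted p = 9.74e-10). Twist1 was listed at 0 in both NMuMG libraries but not in the shPCBP1 libraries, which held 0.323 and 0.333 CPM, the value of 18 reads in each. It stayed under the level at which genes were tested, and no fold is given against a group listed at 0. With no such limit, limma called Twist1 with an adjusted p of 0.000325, in a fit that called 10167 of 15023 genes.

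Of the Snail family, Snai1 was at 0.23 and 0.321 CPM in NMuMG cells and at 3.39 and 3.92 CPM in shPCBP1 cells (log2 fold change 3.33 ± 0.17, SE, limma, adjusted p = 1.12e-08). Snai2 was at 0.319 and 0.415 CPM in NMuMG cells and at 1.67 and 1.66 CPM in shPCBP1 cells (log2 fold change 1.93 ± 0.17, SE, limma, adjusted p = 1.04e-06). Both rose, Snai1 by more than Snai2 on the log2 scale, and the ratio of Snai2 CPM to Snai1 CPM within a library was 1.38 and 1.29 in NMuMG cells and 0.492 and 0.425 in shPCBP1 cells. With 2 libraries a side, the smallest two-sided p of an exact permutation test is 0.333, which is the value for this ratio and for every member.

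The Zeb factors were already present in NMuMG cells. Zeb1 (ENSMUSG00000024238) spans chr18:5591860-5775467 on the plus strand. Zeb1 was at 23.2 and 21.8 CPM in NMuMG cells and at 31.3 and 29.9 CPM in shPCBP1 cells (log2 fold change 0.44 ± 0.045, SE, limma, adjusted p = 3.78e-06). Zeb2 was at 5.15 and 5.34 CPM in NMuMG cells and at 15.3 and 15.6 CPM in shPCBP1 cells (log2 fold change 1.54 ± 0.067, SE, limma, adjusted p = 3.31e-09). The ratio of Zeb2 CPM to Zeb1 CPM was accordingly 0.222 and 0.245 in NMuMG cells and 0.49 and 0.521 in shPCBP1 cells. As the RNA came from whole cultures, a larger share of cells with the transcript and more transcript per cell cannot be told apart here or below.

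The epithelial factors were near the limit of detection in both cell lines and were not tested. Grhl2 was listed at 0 and at 0.019 CPM in NMuMG cells, and at 0.0539 and 0.0371 CPM in shPCBP1 cells, which correspond to 0, 1, 3 and 2 reads. Ovol1 was at 0.181 and 0.175 CPM in NMuMG cells, and was listed at 0 and at 0.0403 CPM in shPCBP1 cells, which correspond to 10, 9, 0 and 2 reads. The 2 groups did not overlap for Ovol1, with NMuMG cells higher, nor for Grhl2, with shPCBP1 cells higher by 1 to 3 reads. Over the 5 members tested the groups did not overlap for 5, and this held for 89.0% of all genes tested. For Twist2, Snai1 and Snai2 the separation was partly set by the limit on low values.

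**Figure D1:**
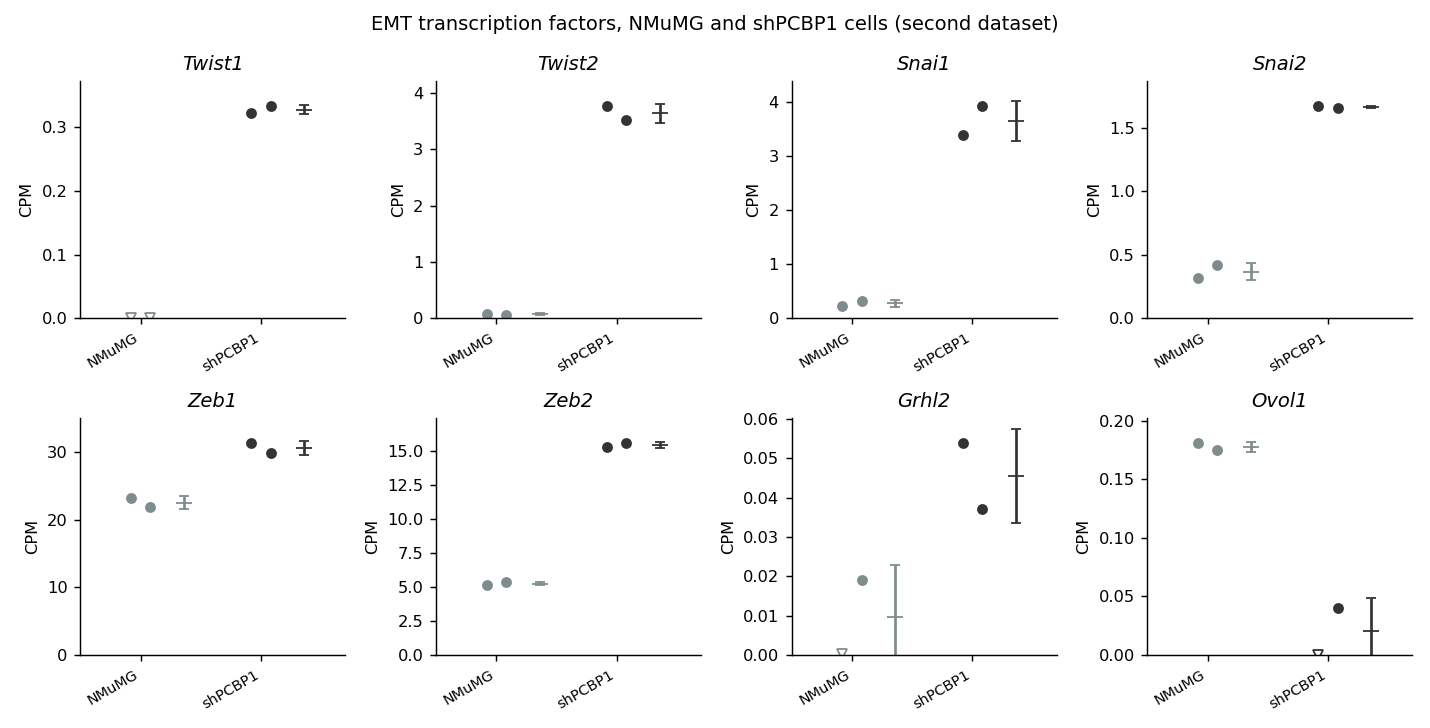
CPM (vertical axis, from 0, a separate range in each panel) of the 8 EMT transcription factors in the 2 NMuMG and 2 shPCBP1 libraries of the second dataset; points are libraries, open triangles are values listed at 0, and bars are the mean ± SD. Twist2, Snai1, Snai2, Zeb1 and Zeb2 are higher in both shPCBP1 libraries, Twist1 is listed at 0 in both NMuMG libraries, and Grhl2 stays under 0.06 CPM.

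Levels of different members can be compared only per length, here as CPM per kilobase of the union of a gene's exons. In NMuMG cells the order was Zeb1 (2.19), Zeb2 (0.263), Snai2 (0.182), Snai1 (0.17), Ovol1 (0.051), Twist2 (0.0217) and Grhl2 (0.00111), with Twist1 listed at 0. Snai2 and Snai1 overlapped between the 2 libraries and were neighbours that did not differ beyond their spread. In shPCBP1 cells of the second dataset the order was Zeb1 (2.98), Snai1 (2.25), Twist2 (1.15), Snai2 (0.824), Zeb2 (0.775), Twist1 (0.201), Ovol1 (0.00579) and Grhl2 (0.00528), and of neighbours in this order Ovol1 and Grhl2 overlapped between libraries. In the 4 shPCBP1 lines of the first dataset it was Twist2 (7.8, range 6.56 to 9.3), Zeb1 (5.79, 5.43 to 5.96), Snai2 (2.99, 2.28 to 3.63), Zeb2 (2.38, 1.84 to 2.82), Snai1 (1.64, 0.623 to 2.23) and Twist1 (0.81, 0.0496 to 2.22). Twist2 and Zeb1 did not overlap there, whereas Snai2, Zeb2, Snai1 and Twist1 each overlapped the next in order. Ovol1 (0.0786) and Grhl2 (0.0776) overlapped at the low end. The 2 datasets were normalized separately, so a higher value in one of them is not read as a difference in level.

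Within the 4 shPCBP1 lines the members differed in how far lines of one label spread. Twist1 varied most, with 3.62 CPM in the unaltered line and 1.41, 0.0808 and 0.172 CPM in CT clones 1, 2 and 3, a 44.8-fold range. Its SD of 2.06 on the log2 scale was larger than that of 99.8% of genes tested, against a median SD of 0.131. Snai1 was at 3.62, 3.37, 1.01 and 2.65 CPM in the same order, and its SD of 0.80 exceeded that of 97.3% of genes. CT clone 2 was therefore the lowest line for both Twist1 and Snai1, and it was also the lowest for Zeb1 (55.8 CPM) and Zeb2 (36.7 CPM) but the highest for Twist2 (29.5 CPM). Zeb1 varied least, with 61.2, 60.8, 55.8 and 60.2 CPM and an SD of 0.06, smaller than for all but 12.3% of genes. Grhl2 was at 0.873, 0.277, 0.768 and 0.756 CPM, with CT clone 1 low and an SD of 0.63 that exceeded 95.8% of genes. These are the values of only 14, 13, 19 and 22 reads. Such shares, here and below, are over all genes tested and not over genes of like level. The part of counting noise in the SDs was not tested. The SDs of Snai2 (0.34), Zeb2 (0.26) and Twist2 (0.21) exceeded those of 87.7, 81.2 and 74.0% of genes. Of the 4 lines, Ovol1 was highest in the unaltered line at 0.488 CPM and was at 0.251, 0.246 and 0.112 CPM in the CT clones.

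The next comparison asked what loss of FAM3C changed among the EMT factors of shPCBP1 cells. Twist2 was lower and Zeb1 and Zeb2 were higher in each of the 3 FAM3C KO clones than in any shPCBP1 line, and Twist1 was at the lowest value of the library in all 3 clones, yet no member passed the test across all genes. limma called 0 of 7 tested members at an adjusted p under 0.07, 2 of them (Twist1 and Zeb2) having an unadjusted p under 0.05, a level that 10.2% of all genes reached. In this comparison 0.309% of 12621 genes were called. The groups did not overlap for 4 of 7 members (Twist1, Twist2, Zeb1 and Zeb2) and for 22.7% of all genes. Twist1 passed the limit on low values only through the shPCBP1 lines, so its place in the count of 4 was partly set by that limit. The median log2 fold change was 0.22 over the 7 members and -0.014 over all genes.

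Twist1 was at 0.0443, 0.04 and 0.0384 CPM in FAM3C KO clones 1, 2 and 3, the lowest value that any gene takes in those libraries and no more than 1 read. The shPCBP1 lines held the value of 58 (unaltered), 66, 2 and 5 reads, so CT clone 2 lay about 1 read above the KO clones. The log2 fold change of -2.36 ± 0.91 (SE, limma, adjusted p = 0.384) depends on the 0.1 CPM added and is no bound; with 1 CPM added it was -0.90. An exact two-sided permutation test of the Twist1 values gave p = 0.171.

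Twist2 was at 15.6, 5.59 and 18.7 CPM in FAM3C KO clones 1, 2 and 3, against 20.8, 25.1, 29.5 and 23.6 CPM in the shPCBP1 lines. The 3 clones lay under all 4 lines but differed 3.35-fold among themselves, and an SD of 0.93 exceeded that of 97.4% of genes in the FAM3C KO group. The log2 fold change was -1.05 ± 0.51 (SE, limma, adjusted p = 0.522) and -0.52 without clone 2. The exact permutation test, two-sided, gave 0.0286, the smallest p that 4 lines against 3 allow, before any correction for the 8 members.

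The Zeb factors lay on the other side. Zeb2 was at 66.4, 66.6 and 65.2 CPM in FAM3C KO clones 1, 2 and 3, against 47.5, 56.3, 36.7 and 49.4 CPM in the shPCBP1 lines. The 3 clones agreed closely, with an SD of 0.02 on the log2 scale that was larger than for only 1.64% of genes, and all lay above the lines. The log2 fold change was 0.49 ± 0.14 (SE, limma, adjusted p = 0.235), with an exact permutation p of 0.0571. When these groups were fitted without the LIFR KO clones limma called Zeb2 (adjusted p = 0.0608), in a fit that called 1040 of 12621 genes. Zeb1 was at 62.4, 81.7 and 65.5 CPM in the clones against 55.8 to 61.2 CPM in the lines, so that clone 1 lay just above the highest line. Its log2 fold change was 0.22 ± 0.11 (SE, limma, adjusted p = 0.505), with an exact permutation p of 0.0286, and 0.11 without clone 2.

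Snai1 was at 4.16, 3.4 and 3.73 CPM in FAM3C KO clones 1, 2 and 3, of which clone 2 fell within the 1.01 to 3.62 CPM of the shPCBP1 lines and the others above (log2 fold change 0.62 ± 0.43, SE, limma, adjusted p = 0.727). Snai2 was at 7.71, 8.44 and 6.53 CPM against 4.62 to 7.33 CPM (0.34 ± 0.29, SE, adjusted p = 0.804). For both, the groups overlapped. Grhl2 was at 0.797, 0.24 and 0.768 CPM, with clone 2 as low as CT clone 1, and its log2 fold change was -0.17 ± 0.45 (SE, limma, adjusted p = 0.963). Ovol1, under the tested level, was at 0.192, 0.174 and 0.175 CPM, inside the range of the lines.

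Ratios of members within a library are given as a description. The ratio of Twist2 CPM to Zeb1 CPM was 0.34, 0.413, 0.529 and 0.392 in the shPCBP1 lines and 0.25, 0.0684 and 0.286 in FAM3C KO clones. These groups had to separate, since Twist2 was lower and Zeb1 higher in every clone than in any line, so the ratio is no further test. The ratio of Zeb2 CPM to Zeb1 CPM was 0.776, 0.927, 0.658 and 0.822 in the lines and 1.06, 0.815 and 0.995 in the clones, and the groups overlapped (exact permutation p = 0.171). In the second dataset the ratio of Twist2 to Zeb1 was 0.00351 and 0.0026 in NMuMG cells and 0.12 and 0.118 in shPCBP1 cells.

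**Figure D2:**
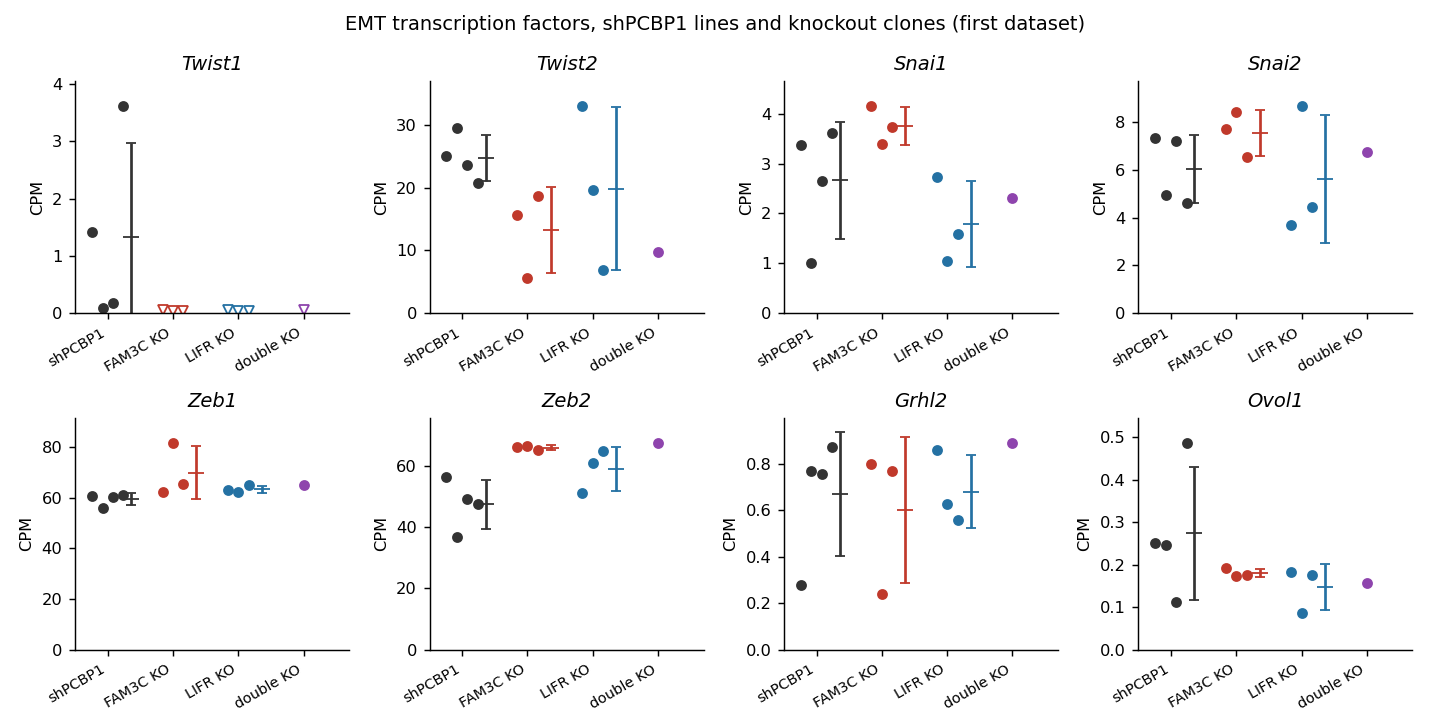
CPM (vertical axis, from 0, a separate range in each panel) of the 8 EMT transcription factors in the 11 libraries of the first dataset; points are lines or clones, open triangles are values at the lowest value of the library, and bars are the mean ± SD of a group (the double KO is 1 line). Twist1 is above the lowest value only in shPCBP1 lines, all 3 FAM3C KO clones are under the shPCBP1 lines for Twist2 and above them for Zeb1 and Zeb2, and LIFR KO clones run from 6.94 to 33.1 CPM for Twist2.

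LIFR KO clones were compared with the same 4 shPCBP1 lines, so that this comparison and the one above share their controls and only their own values are given side by side. No member passed the test: limma called 0 of 7 at an adjusted p under 0.07, with 2 (Twist1 and Zeb2) at an unadjusted p under 0.05, as had 35.7% of all genes. Here 6.47% of 12621 genes were called. The groups did not overlap for 2 of 7 members (Twist1 and Zeb1) and for 17.2% of all genes, and Twist1 again passed the limit on low values only through the shPCBP1 lines. The median over all genes was itself -0.16 on the log2 scale, and the median over the 7 members was -0.17, so each value below is to be read relative to -0.16.

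In LIFR KO clones 1, 2 and 3 Twist1 was at 0.0536, 0.0416 and 0.0429 CPM, again the lowest value of each library. This is the same state as in FAM3C KO clones, with a log2 fold change of -2.31 ± 0.91 (SE, limma, adjusted p = 0.111), -0.89 with 1 CPM added, and an exact permutation p of 0.171. Twist2 was at 33.1, 19.6 and 6.94 CPM in clones 1, 2 and 3, so that clone 1 lay above and clones 2 and 3 below all of the shPCBP1 lines. Its log2 fold change of -0.57 ± 0.51 (SE, limma, adjusted p = 0.422) turned to 0.43 when clone 1 was taken alone, and the SD of 1.14 exceeded that of 96.8% of genes in this group.

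LIFR KO clones held Snai1 at 2.74, 1.04 and 1.59 CPM against 1.01 to 3.62 CPM in the lines (log2 fold change -0.51 ± 0.43, SE, limma, adjusted p = 0.394), and 0.15 after correction for GC content. Snai2 was at 3.7, 8.69 and 4.46 CPM, with clone 2 above and clones 1 and 3 below the range of the lines (-0.17 ± 0.29, SE, limma, adjusted p = 0.682). The log2 fold change of Snai2 was -0.34 after correction for GC content and -0.66 for clone 1 alone. Clone 2 thus held the lowest Snai1 and the highest Snai2 of the group, and its ratio of Snai2 to Snai1 was 8.36 against 1.35 and 2.81 in clones 1 and 3. In the shPCBP1 lines that ratio was 1.28, 2.18, 4.92 and 2.73, overlapping the LIFR KO range (exact permutation p = 0.571).

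In LIFR KO clones 1, 2 and 3 Zeb2 was at 51.2, 61.1 and 65.1 CPM, with clone 1 inside the range of the shPCBP1 lines and clones 2 and 3 above it. The log2 fold change was 0.33 ± 0.14 (SE, limma, adjusted p = 0.133). Without clone 1 it was 0.43 (limma, adjusted p = 0.0293, called), in a fit that called 7232 of 12621 genes. It was 0.49 under median-ratio scaling (limma, adjusted p = 0.0876), 0.13 for clone 1 alone and 0.06 after correction for GC content. Zeb2 has 40.6% GC over its exons, the lowest of the 8 members, and clones 2 and 3 are those in which low-GC genes were relatively high; the part of that trend in the Zeb2 value was not tested beyond the correction. Zeb1 was at 63.0, 62.1 and 64.9 CPM, close together and all just above the highest line (0.09 ± 0.11, SE, limma, adjusted p = 0.535). Grhl2 (0.858, 0.624 and 0.557 CPM) overlapped the lines with a log2 fold change of 0.09 ± 0.45 (SE, limma, adjusted p = 0.892), and Ovol1 (0.183, 0.0862 and 0.177 CPM) was not tested. The summed luminal markers came to 1210 to 2090 CPM in LIFR KO clones against 2470 to 3170 CPM in the lines, and their part in these member values was not tested.

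**Figure D3:**
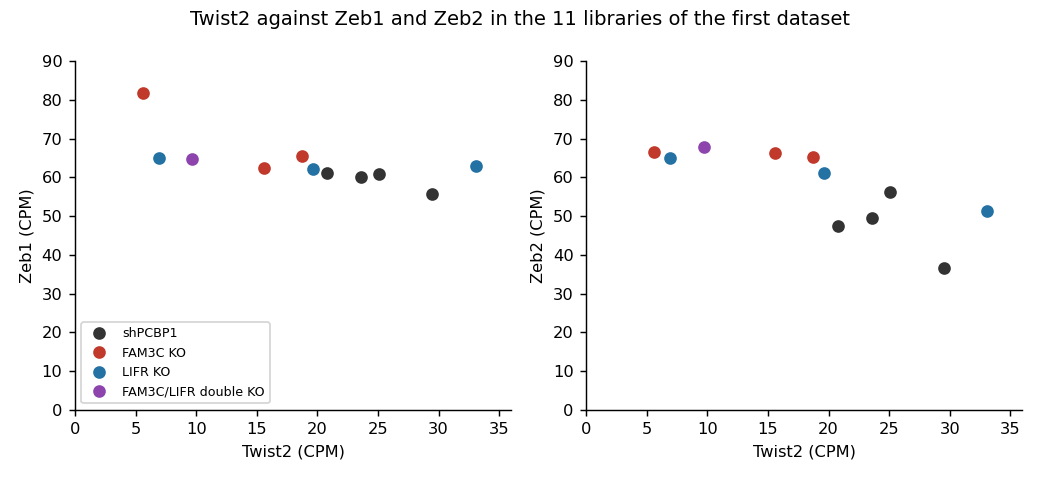
Twist2 CPM (horizontal axis) against Zeb1 CPM (left) and Zeb2 CPM (right) in the 11 libraries of the first dataset, each point a line or clone. FAM3C KO clone 2 has the lowest Twist2 (5.59 CPM) and the highest Zeb1 (81.7 CPM), CT clone 2 has the lowest Zeb2 (36.7 CPM), and LIFR KO clone 1 has the highest Twist2 (33.1 CPM).

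The 2 kinds of knockout were also compared with each other. limma called 0 of 7 members, with Snai1 alone at an unadjusted p under 0.05, a level reached by 29.3% of genes, while 8.28% of 12621 genes were called. The groups did not overlap for 2 of 7 members, Snai1 and Zeb2, and for 22.8% of all genes. Snai1 was higher in FAM3C KO clones (3.4 to 4.16 CPM) than in LIFR KO clones (1.04 to 2.74 CPM), with a log2 difference of 1.13 ± 0.46 (SE, limma, adjusted p = 0.141) and an exact permutation p of 0.1, the smallest that 3 against 3 allow. Snai1 was called without LIFR KO clone 1 (1.47, limma, adjusted p = 0.0274), in a fit that called 6674 of 12621 genes. Its log2 difference was 0.50 after correction for GC content. Zeb2 was 65.2 to 66.6 CPM against 51.2 to 65.1 CPM (0.17 ± 0.15, SE, limma, adjusted p = 0.46), with a log2 difference of 0.395 after correction for GC content. For Snai2 the log2 difference was 0.51 ± 0.31 (SE, limma, adjusted p = 0.271). It was 0.67 after correction for GC content and 1.0 with clone 1 as the only LIFR KO library. Twist2, with 5.59 to 18.7 CPM against 6.94 to 33.1 CPM, overlapped (-0.49 ± 0.54, SE, limma, adjusted p = 0.545), as did Snai2, Zeb1 and Grhl2. Twist1, at the lowest value of each library on both sides, also overlapped (-0.05 ± 0.97, SE, limma, adjusted p = 0.978), and so did Ovol1, which was under the tested level.

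The FAM3C/LIFR double KO line is a single library and enters no test. It held Twist1 at its lowest value, Twist2 at 9.69 CPM, Snai1 at 2.3 CPM, Snai2 at 6.75 CPM, Zeb1 at 64.8 CPM, Zeb2 at 67.7 CPM, Grhl2 at 0.89 CPM and Ovol1 at 0.156 CPM. Its Twist2 was under and its Zeb1 and Zeb2 were above all 4 shPCBP1 lines, the same side as in the 3 FAM3C KO clones and in LIFR KO clones 2 and 3, while Snai1, Snai2 and Ovol1 were inside the range of the lines. The share of all genes outside that range in this library was not counted, so these positions are a description only. The ratio of Twist2 to Zeb1 was 0.15 in this line. It shared the high mitochondrial share and the GC trend with LIFR KO clones 2 and 3.

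**Figure D4:**
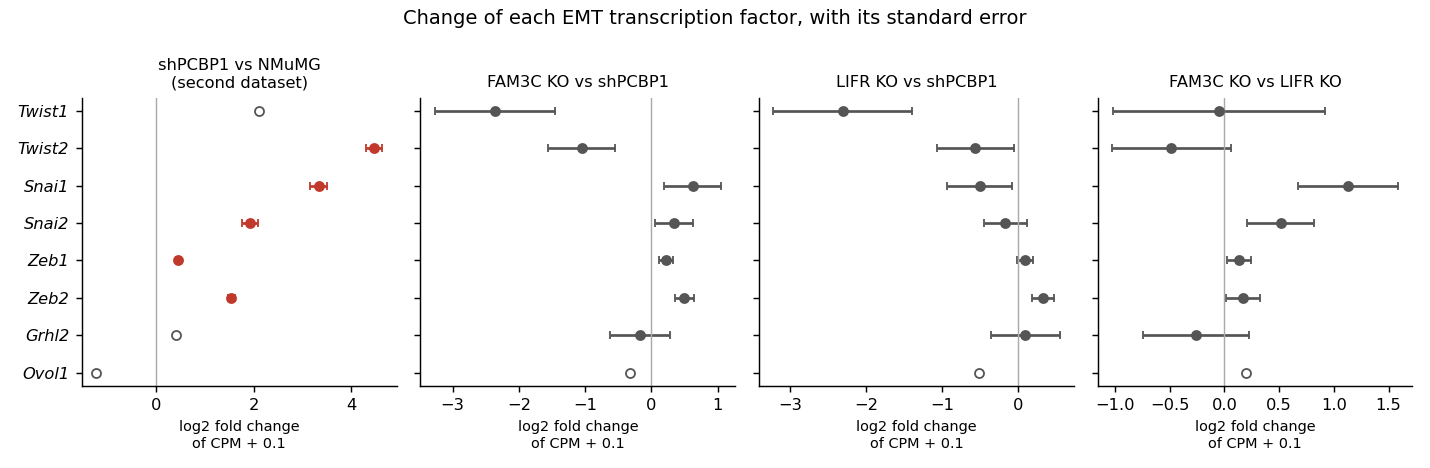
Log2 fold change of CPM + 0.1 (horizontal axis, a separate range in each panel) for each EMT transcription factor in the 4 comparisons, with bars of 1 SE from limma; red points are called at an adjusted p under 0.07 and open points were under the tested level and have no SE. Red points appear only for shPCBP1 against NMuMG cells, where Twist2 leads at 4.47, and the bars of Twist1 and Twist2 are the widest in the comparisons of knockouts with shPCBP1 lines.

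Other genes of the EMT network were taken from 5 lists. In the comparison of shPCBP1 with NMuMG cells 57 of 64 tested list genes were called (89.1%), beside 80.1% of all genes, and the counts below are read against that share. Of 14 tested epithelial genes, 12 were lower and 2 higher in shPCBP1 cells, with a median log2 fold change of -0.57 against 0.025 over all genes. Marveld2 (tricellulin, a protein of tricellular tight junctions) was at 10.5 and 11.1 CPM in NMuMG cells and at 0.0539 and 0.0925 CPM in shPCBP1 cells (log2 fold change -5.99 ± 0.16, SE, limma, adjusted p = 6.12e-11). Tjp3, a tight junction scaffold protein, fell from 1.19 and 1.45 CPM to 0.126 and 0.24 CPM. The 2 higher genes were Pkp1, a desmosomal plakophilin listed at 0 in NMuMG cells and at 1.08 and 1.11 CPM in shPCBP1 cells, and Krt18, a luminal keratin that rose by only 0.08 on the log2 scale and was not called without the second shPCBP1 library (adjusted p = 0.184). Of 12 tested mesenchymal genes, 10 were higher and 1 lower, with a median of 2.0. Nes (nestin, an intermediate filament protein) was at 0.0532 and 0.132 CPM in NMuMG cells and at 268 and 278 CPM in shPCBP1 cells, and Col5a1, a fibrillar collagen chain, was at 0.0355 CPM and listed at 0 against 11.1 and 11.2 CPM. The lower gene, Mmp14, a membrane-bound matrix metalloproteinase, fell by 0.27 on the log2 scale. Of the genes named here, Pkp1, Nes and Col5a1 passed the limit on low values only through the shPCBP1 libraries. Marveld2 and Tjp3 passed it only through the NMuMG libraries.

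Twist proteins depend on the balance of E proteins, with which they pair, and Id proteins, which sequester E proteins. Of 6 tested genes of this list, 3 were higher and 2 lower in shPCBP1 cells. Id3 was at 8.0 and 7.83 CPM in NMuMG cells and at 52.8 and 55.4 CPM in shPCBP1 cells (log2 fold change 2.76 ± 0.046, SE, limma, adjusted p = 2.8e-12), and Id1 rose from 85.9 and 92.1 CPM to 213 and 223 CPM. The E protein gene Tcf4 was lower (-0.87 on the log2 scale), and the call of Tcf12 (-0.08) was lost in 3 of 4 fits that left out 1 library (without the first NMuMG library or either shPCBP1 library, adjusted p = 0.137, 0.0795 and 0.178). Of 12 other transcription factors linked to EMT or epithelial identity, 7 were higher and 4 lower, led by Foxc1 (2.89) and Grhl1 (1.10), a paralogue of Grhl2, in one direction and by the epithelial ETS factors Ehf (-1.90) and Elf3 (-0.95) in the other. Foxc1, with an NMuMG mean of 0.251 CPM, passed the 0.5 CPM limit only through the shPCBP1 libraries, so its direction was partly set by that limit. Of 20 corepressors and factors that set the stability of Snail, Twist or Zeb proteins, 9 were higher and 7 lower, no larger a share than over all genes. Usp27x, a deubiquitinase that stabilises Snail, rose by 0.65 on the log2 scale and the kinase gene Csnk1d by 0.40, while Btrc, the F-box protein that marks Snail for degradation, fell by 1.24 and the kinase gene Pak1 by 0.56.

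In FAM3C KO clones 1 of 69 tested genes of the 5 lists was called (1.45%, beside 0.309% of all genes). Mmp2, a secreted gelatinase, was at 0.0886, 0.44 and 0.0384 CPM in clones 1, 2 and 3 against 3.62, 1.07, 5.54 and 12.8 CPM in the shPCBP1 lines (log2 fold change -4.13 ± 0.73, SE, limma, adjusted p = 0.0662). Its mean in FAM3C KO clones was 0.189 CPM. Mmp2 thus passed the 0.5 CPM limit mainly through the shPCBP1 lines, which partly set its place among the calls. The call was marginal: the log2 fold change was -3.92 after quantile normalization (adjusted p = 0.0701), and Mmp2 was also not called with 1 CPM added (-2.20, adjusted p = 0.113) or a limit of 1 CPM (adjusted p = 0.0914). Under median-ratio scaling (-4.09, limma, adjusted p = 0.0637) and GC correction (-4.08, limma, adjusted p = 0.0456) the call was kept. With 1 library left out the log2 fold change of Mmp2 ran from -4.74 to -3.59, and Mmp2 was called in 1 of 7 fits, that without CT clone 1 (adjusted p 0.0644 to 0.244). The 14 other mesenchymal genes and the 14 epithelial, 7 bHLH and Id, 13 other transcription factor and 20 corepressor and stability genes gave 0 calls in limma, with 4, 1, 0, 5 and 2 of them at an unadjusted p under 0.05.

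In LIFR KO clones 8 of 69 tested list genes were called (11.6%, beside 6.47% of all genes), all lower, as were 701 of the 816 calls over all genes. Of the epithelial genes 1 of 14 fell, Krt18, from a mean of 958 ± 102 CPM (SD, n = 4) to 596 ± 172 CPM (SD, n = 3). Of the mesenchymal genes 3 of 15 fell, namely Mmp2 (-2.76), Itga5 (-1.12), an integrin subunit that binds fibronectin, and Mmp14. Of the bHLH and Id genes 2 of 7 fell, Id3 at 27.6, 14.3 and 22.3 CPM in clones 1, 2 and 3 against 29.2 to 52.6 CPM in the lines, and Id1 at 125, 78.2 and 96.1 CPM against 165 to 197 CPM. Of the other transcription factors 2 of 13 fell, Klf4 at 38.6, 34.2 and 50.2 CPM against 73.7 to 112 CPM (log2 fold change -1.19 ± 0.17, SE, limma, adjusted p = 0.0236), and Sox9 (-0.89). limma called 0 of 20 corepressor and stability genes, with 8 at an unadjusted p under 0.05. After correction for GC content no gene of the 5 lists was called, with log2 fold changes of -0.22 for Krt18, -2.30 for Mmp2, -0.58 for Itga5, -0.49 for Id3, -0.42 for Id1, -0.75 for Klf4 and -0.69 for Sox9. With clone 1 as the only LIFR KO library they were -0.54, -3.15, -1.03, -0.55, -0.51, -1.26 and -0.40, in the same order of genes. With 1 library left out each of these 7 kept its direction but was called in 1 (Id3, Sox9) to 5 (Klf4) of 7 fits. Under median-ratio scaling Itga5, Id1 and Klf4 of the named genes were called.

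**Figure D5:**
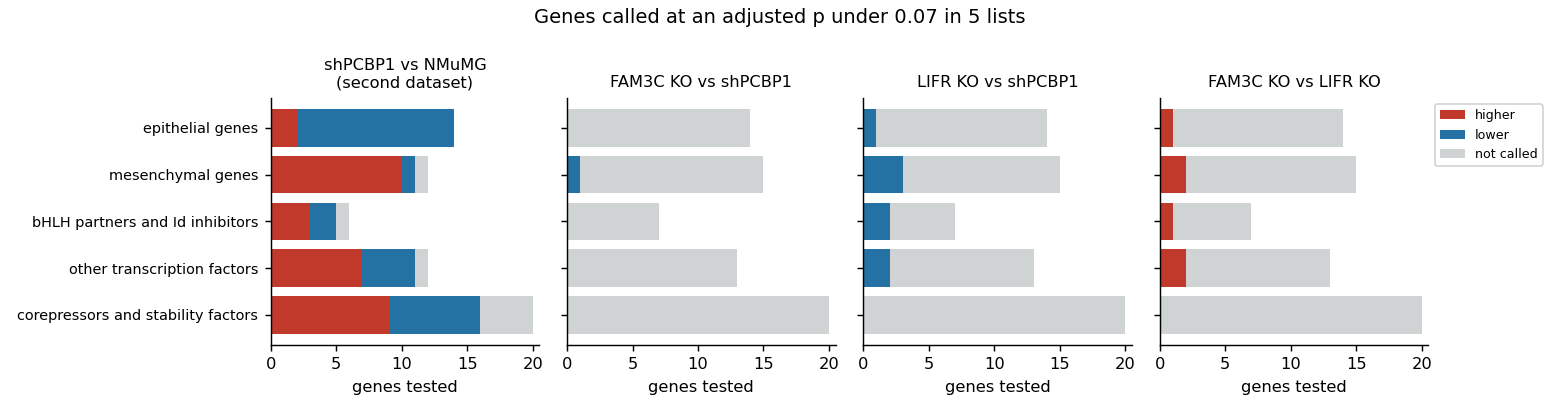
Number of tested genes (horizontal axis, from 0) in each of 5 lists of EMT-related genes that were called higher, lower or not called at an adjusted p under 0.07 in the 4 comparisons. Epithelial genes are mostly lower (12 of 14) and mesenchymal genes mostly higher (10 of 12) in shPCBP1 against NMuMG cells, beside 80.1% of all genes called there, and at most 3 genes of a list are called in any comparison of the knockout clones.

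The genes whose log2 CPM followed each member most closely over the 11 libraries of the first dataset are given as a description, since the libraries share clones, depth and the GC trend. For Twist2 they were Pde4b (Pearson r = 0.976), Ptpn13 (0.976) and Setbp1 (0.97). For Snai1 they were Stx2 (0.923), Plaat3 (0.913) and Camk1 (0.911), and for Snai2 Cwc27 (0.884), Rpap2 (0.876) and Fcf1 (0.876). For Zeb1 they were Gm9732 (0.941), Il18rap (0.937) and Spire1 (0.926), and for Zeb2 Gm43517 (0.924), Snx10 (0.923) and Acyp2 (0.921). Twist1, which is at the lowest value in 7 of 11 libraries, had the least close neighbours, Prox2 (0.803), Spata21 (0.778) and Olfr543 (0.772), and Grhl2 had Ncald (0.845), Mtss1 (0.835) and Clmn (0.833). No member was among the 3 closest genes of another member.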

How the data were processed

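RNA-Seq of rRNA-depleted total RNA was measured in 11 libraries (first dataset) and 4 libraries (second dataset). The authors trimmed the reads, aligned them to GRCm38 (mm10) with Bowtie2 in Partek Flow and deposited normalized CPM per gene; the deposited second table also holds group means and fold changes, which were not used. In the second dataset a value of 0.0001 CPM stands in place of 0. Whole reads could not be recovered (85.7 to 87.6% of low values in the first dataset and 90.6 to 91.2% in the second were within 0.02 of whole multiples), so counts were not modelled.

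Groups followed the sample labels. log2(CPM + 0.1) was fitted with limma 3.58.1 (eBayes with trend; R 4.3.3) over 10 libraries of the first dataset in 3 groups (the double KO left out) and over the 4 libraries of the second, for genes whose mean reached 0.5 CPM, with Benjamini-Hochberg adjustment over all genes tested and a call at an adjusted p under 0.07. The step was tested on simulated data. Single members were also compared by exact two-sided permutation tests of the difference in mean log2(CPM + 0.1). Groups that do not overlap can therefore have a p above the smallest possible. Spearman correlations were computed with scipy 1.17.1. Values were handled in Python 3.11.15 with pandas 2.3.3 and numpy 2.4.6 and drawn with matplotlib 3.10.9.

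All members are named in every comparison; of each list, the 2 called genes with the largest change per direction are named, and for likeness the 3 genes of highest correlation among those averaging 1 CPM or more. The members, lists and tests were chosen with earlier results of these data known. Promoter sequences are from RefSeq (GRCm38.p6), where Twist1, Twist2 and Snai1 each matched 1 window; Snai2, Zeb1, Grhl2 and Ovol1 had none. Identifiers, exon lengths and loci are from GENCODE M21. Alternatives were median-ratio and quantile scaling, another pseudocount, other filters, a threshold of 0.05, a replicate block, groups fitted alone, a GC correction and leaving out each library. Of the other marker sums, endothelial markers (2 of 3 listed in the first dataset) summed to at most 2.0 CPM, the 1 listed leukocyte marker, Cd68, to at most 10.8 CPM, basal markers (3 of 5 listed) to at most 5.24 CPM, and adipocyte markers were not analysed in the first dataset. In the second dataset basal, endothelial, leukocyte and adipocyte markers summed to at most 0.248, 0.341, 1.68 and 0.019 CPM.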

Additional observations from a re-analysis of the deposited data

Results flagged for a closer look

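In 6 of 69 tested genes of the EMT lists (8.70%) the FAM3C KO and LIFR KO clones differed in limma, with FAM3C KO clones higher. Over all genes 8.28% were called, 862 of 1045 of them higher in FAM3C KO clones, a share near that of the lists. The log2 differences were 0.86 for Krt18, 1.27 for Itga5, 0.91 for Fn1 (fibronectin), 0.74 for Id1, 0.98 for Klf4 and 0.40 for Sox4. All 3 FAM3C KO clones were above all 3 LIFR KO clones for each, for example 54.1, 51.1 and 50.4 CPM against 22.7, 16.1 and 27.0 CPM for Itga5. None of the 6 was called after correction for GC content, where the differences were 0.39, 0.75, 0.58, 0.35, 0.59 and 0.16. With clone 1 as the only LIFR KO library they were 0.68, 1.19, 0.60, 0.38, 1.04 and 0.41, in the same order of genes. With 1 library left out each was called in 2 of 6 fits, except Itga5 in 4 of 6. The median difference over all genes was 0.14. Of 20 corepressor and stability genes limma called 0, with 7 at an unadjusted p under 0.05.

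The double KO line, which enters no comparison, lay above all 4 shPCBP1 lines for Zeb1 (64.8 CPM), Zeb2 (67.7 CPM) and Grhl2 (0.89 CPM). For Grhl2 the highest shPCBP1 line was at 0.873 CPM. The line has no replicate, 8.58% of its CPM was on mitochondrial genes, and the share of all genes above the shPCBP1 lines in it was not counted.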

How the results depend on the processing

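For shPCBP1 against NMuMG cells the 5 calls were kept under every alternative. With no limit on low values 8 members were called, beside 10167 of 15023 genes. Among them Twist1 and Grhl2 were higher in shPCBP1 cells and Ovol1 was lower. Grhl2 rested on 0 to 3 reads per library, and Twist1 was listed at 0 in both NMuMG libraries. For FAM3C KO against shPCBP1, 1 member (Zeb2) was called when these groups were fitted alone. For LIFR KO against shPCBP1 and FAM3C KO against LIFR KO, 0 to 1 member was called when 1 library was left out. These members were Zeb2 and Snai1, both without LIFR KO clone 1. The fits in which a member was called gave 1040, 7232 and 6674 calls over 12621 genes, in this order. Signs of the log2 fold changes that turned were those of Grhl2 for FAM3C KO against shPCBP1 (-0.48 to 0.29 with 1 library left out). For LIFR KO against shPCBP1 they were Twist2 (-1.06 to 0.053 with 1 library left out, 0.43 with clone 1 only), Snai1 (0.15 under GC correction, 0.18 with clone 1 only), Snai2 (0.065 under quantile normalization, -0.53 to 0.077 with 1 library left out), Grhl2 (-0.22 to 0.23) and Lifr (-0.62 to 0.0088 with 1 library left out, 0.14 with clone 1 only). For FAM3C KO against LIFR KO they were Twist2 (-1.11 to 0.046), Zeb1 (-0.012 under median-ratio scaling) and Grhl2 (-0.50 to 0.20). None of these values passed the test, and the cause was not tested.

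Over all genes, FAM3C KO against shPCBP1 gave 39 calls, with 21 at a mean of at least 1 CPM, 237 under GC correction, 1040 with the groups fitted alone and 3 to 27 with 1 library left out. LIFR KO against shPCBP1 gave 816, with 478 under median-ratio scaling, 359 at 0.05, 34 fitted alone, 44 under GC correction, 280 with clone 1 only, and 5 to 7232 with 1 library left out (7232 without LIFR KO clone 1). FAM3C KO against LIFR KO gave 1045, with 587 at 0.05, 0 fitted alone, 74 under GC correction, and 1 to 6674 with 1 library left out (6674 without LIFR KO clone 1). Higher calls were 11 of 39, 115 of 816 and 862 of 1045 in these comparisons, and 13 of 32, 248 of 615 and 486 of 833 under quantile normalization, 190 of 478 and 494 of 818 for the latter 2 under median-ratio scaling, and 130 of 237, 23 of 44 and 41 of 74 under GC correction.

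Clone numbers do not pair the samples: correlations of deviations between same-numbered clones ran from -0.19 to 0.15 over 9 pairs, 2 of 9 clones correlated best with their own number, and the r of the second dataset was 0.05. With the replicate number as a block, members called were 0, 0, 0 and 5 as before, and genes called were 15, 10, 0 and 9235. The block fit of the first dataset also left out the unaltered shPCBP1 line. Leaving out that line without a block gave 27 calls for FAM3C KO and 25 for LIFR KO against shPCBP1. Depth limits Grhl2 in the second dataset and Twist1 in the first, where group ranges lie 1 or a few reads apart.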
